A study of Mus musculus with 12 samples.

Results

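CT26 is a mouse colon carcinoma line, and the comparison described here is between CT26 cells kept in starvation medium and CT26 cells kept in control medium, both without drug. The members are the 6 arrays that the labels call STARVATION 1 to 3 (STS, short-term starvation) and CONTROL 1 to 3 (CTR), out of 12 arrays in all, and every gene on them was described. CTR cells received medium with 1 g/L glucose and 10% serum, whereas STS cells received 0.5 g/L glucose and 1% serum, in both cases for 48 hours. The labels name DMEM/F12 for the serum restriction and DMEM made up from a glucose-free stock for the glucose restriction. In the study's text both arms of each restriction have the same base, and which base the combined media had is not clear. Glucose and serum changed together, so that their effects cannot be told apart. A part of the base medium was not tested. The other 6 arrays were from cells given oxaliplatin (OXP), a platinum compound used against colorectal cancer, in control medium (OXP) or in starvation medium (STS+OXP), at a dose that the labels put at 10 µM and on which the study's own text differs. They entered the model for its estimate of the spread and are shown only where the same change of medium is followed in the presence of drug. Separate cultures are not mentioned for the 3 arrays of a group in any source, so that p-values measure the spread between these arrays, which may be technical.

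Serum carries growth factors, lipids bound to lipoproteins, hormones and trace elements, and glucose supplies carbon for energy, for sugar chains on secreted proteins and for lipid synthesis. Cultured cells answer changes in these supplies through known transcription programs. SREBP factors switch on sterol and fatty acid synthesis when membranes lack sterol. ATF4 and the unfolded protein response switch on amino acid supply and chaperones when amino acids run short or the endoplasmic reticulum (ER) is overloaded. FoxO factors act when insulin-like signals fall, HIF-1 acts when oxygen is low, and interferon acts through STAT and IRF factors on genes of antiviral defence. The comparison asks which of these programs differed between the media, beyond the glycolytic genes.

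All values are log2 signals as deposited by the authors after RMA, so that 1 unit is a 2-fold difference, and a difference is STS minus CTR. One probe set was used for each of 17097 genes. Genes with an adjusted p under 0.05 in limma (Benjamini-Hochberg, 17097 genes) are referred to as called. Of the 17097 genes, 2819 (16.5%) were called. STS was higher for 1667 (9.75%) and lower for 1152 (6.74%), and the count at an unadjusted p under 0.05 was 4641. A fold of at least 2 was reached by 385 called genes, of which 307 were higher and 78 lower in STS. Folds of at least 4 were reached by 52 genes in the higher direction and 9 in the lower. The median difference over all genes was -0.03. The level of nonspecific control probe sets, taken as background, averaged 3.66 on CTR and 3.53 on STS arrays, and 7198 genes lay at or under it in both groups.

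The 3 CTR arrays differed from each other by a root mean square of 0.15 to 0.205 over genes and the 3 STS arrays by 0.132 to 0.148, against 0.33 to 0.416 between the groups. CTR 1 lay 0.398 to 0.416 from the STS arrays, against 0.33 to 0.36 for CTR 2 and CTR 3. It lay 0.205 from CTR 2 and 0.175 from CTR 3, which were 0.15 apart. Among the drug arrays that add to the estimated spread, OXP 1 had a Gapdh control signal 3.85 higher at its 3′ than at its 5′ end, against -0.12 to 0.28 on the other arrays. OXP 2 lay nearer to the STS+OXP arrays (0.143 to 0.204) than to OXP 1 (0.345) or OXP 3 (0.251), and whether it holds the sample its label names could not be settled from these data. Without OXP 1 and OXP 2, 3906 genes were called in STS against CTR, and all 2819 were among them. In RNA from whole cultures, fewer cells of a kind and less RNA per cell cannot be told apart.

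Genes were sorted into 29 lists by what they are known to do. The lists covered 730 measured genes. Genes named beyond the 4 largest called members and the key members of a list were chosen after their values were seen. The lists with the highest medians were those of MHC class I antigen presentation, interferon-stimulated genes and cholesterol synthesis. Those with the lowest medians were ER chaperones, the ATF4 amino acid response and HIF-1 targets.

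**Figure D1:**
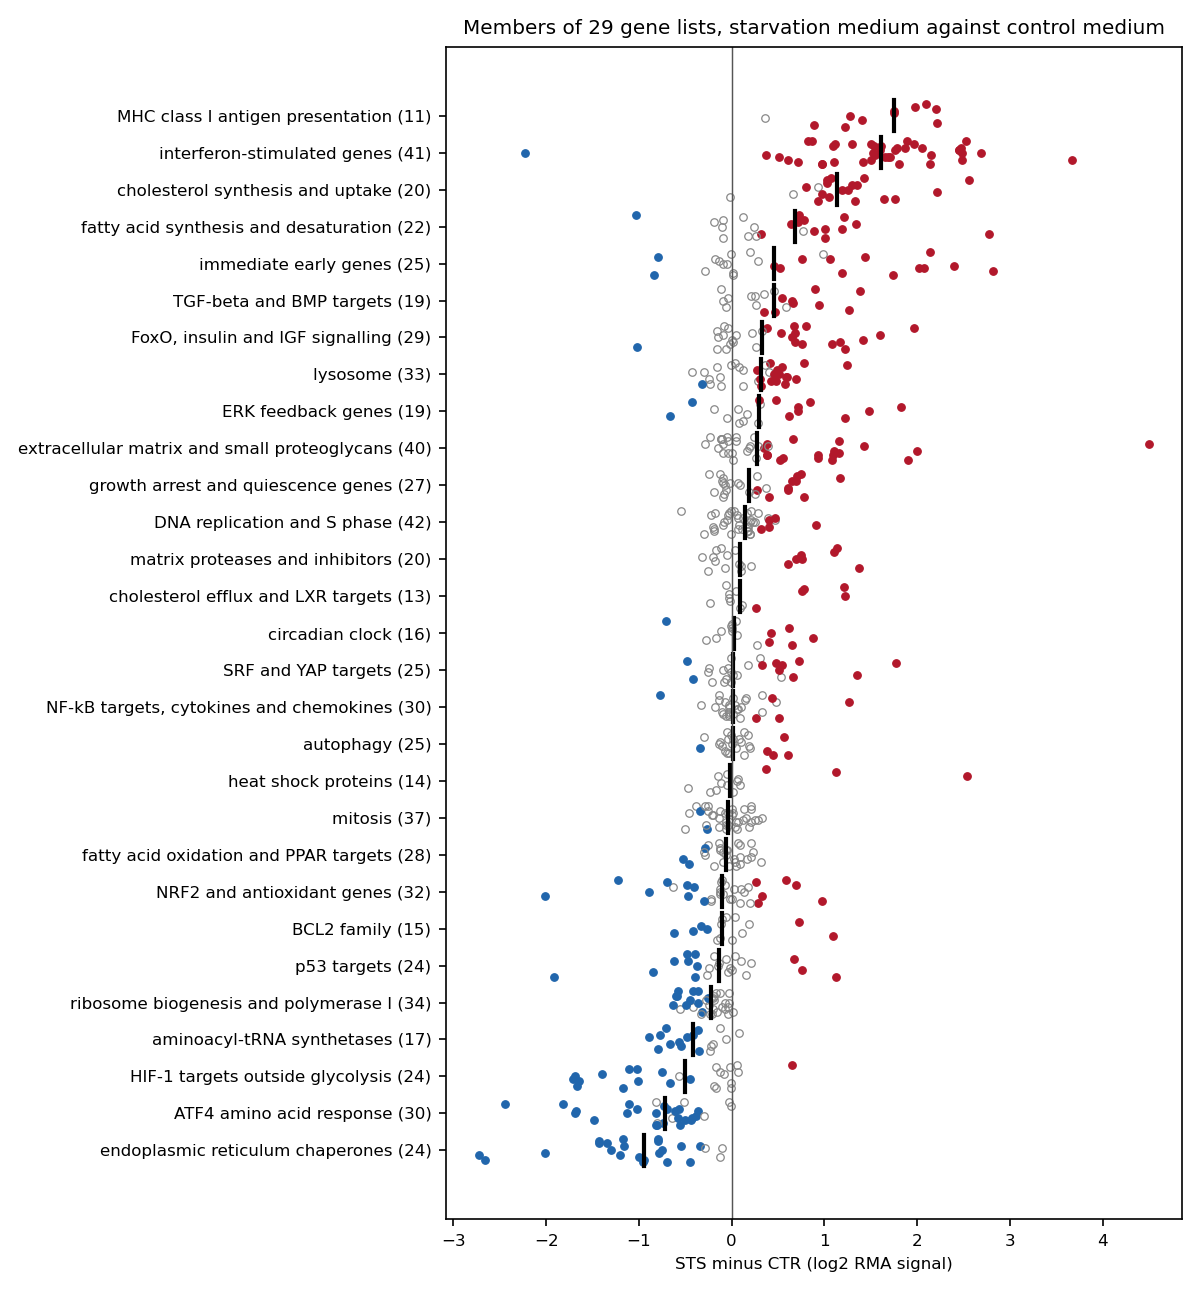
Differences between STS and CTR (log2 signal, horizontal axis) for the members of 29 gene lists, with the number of measured members in brackets. Each circle is 1 gene, filled red where called higher, filled blue where called lower and open where not called, and the black bar is the list's median, from 1.75 for MHC class I antigen presentation to -0.95 for ER chaperones.

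The largest rise of all belonged to a gene of the extracellular matrix. Ogn, which encodes the small leucine-rich proteoglycan osteoglycin, had signals of 4.79, 5.19 and 4.78 on the CTR arrays and 9.25, 9.45 and 9.54 on the STS arrays. Its difference of 4.49 (SE 0.475, limma adjusted p = 2.28e-05) corresponds to 22.5-fold. Ogn lies on chromosome 13 of GRCm38 from 49608015 to 49624501. Its neighbour Omd (49582462 to 49592612), which encodes the related proteoglycan osteomodulin, read 4.95, 5.05 and 4.62 on the CTR arrays and 7.96, 8.18 and 8.21 on the STS arrays, a difference of 3.24 (SE 0.36, limma adjusted p = 3.35e-05). Aspn (49544443 to 49567565), which encodes asporin, is next in the row. It was at background in CTR and at 4.03, 4.66 and 5.04 in STS, at least 1.89-fold higher (adjusted p = 4.34e-05). These 3 neighbours therefore all rose, whereas Ecm2, the gene beyond Aspn (49504810 to 49532789), was at background in both groups (adjusted p = 0.971).

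Apod, which encodes a lipocalin that binds small lipids, read 5.48, 5.24 and 5.49 on the CTR arrays and 9.36, 9.42 and 9.42 on the STS arrays, with a difference of 4.0 (SE 0.399, limma adjusted p = 1.36e-05). Ghr, the growth hormone receptor, read 4.59, 4.99 and 4.41 on the CTR arrays and 7.68, 7.65 and 7.74 on the STS arrays and rose by 3.025 (adjusted p = 1.75e-06). Aldh1a1, a retinaldehyde dehydrogenase, rose by 2.86, from 3.76, 4.17 and 3.69 to 6.56, 6.83 and 6.82 (adjusted p = 9.9e-09). In all 3 every STS array lay above every CTR array, which was a condition for a place among the largest rises. Of the 2819 called genes, 10 had overlapping arrays. Prss23, a secreted serine protease, rose by 3.2 (adjusted p = 0.00011), but its specific probe set did not pass (0.13, adjusted p = 0.33). Another of its probe sets was called higher (3.1). Cemip, a protein involved in the breakdown of hyaluronan, and Csprs were at background in CTR and at least 7.76-fold and 10.3-fold higher in STS (adjusted p = 3.08e-06 and 3.47e-07). Their other probe sets were not called (-0.005 and 0.05 for Cemip, 0.59 and 0.72 for Csprs). The other members of the 15 largest rises were the interferon-linked genes Ifi27l2a, Iigp1, Ifi44l, Gbp10 and Zbp1, the immediate early gene Fos and the lipid gene Acss2, described with their groups.

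Stbd1 showed the largest fall. It encodes a protein that tethers glycogen to membranes. Its signals were 7.68, 7.28 and 7.58 on the CTR arrays and 3.6, 3.77 and 3.57 on the STS arrays, so that the STS arrays lay close to background. Its difference was -3.86 (SE 0.139, limma adjusted p = 4.64e-09), which is 14.6-fold. Car6, a secreted carbonic anhydrase, read 6.17, 6.17 and 6.25 in CTR and was at background in STS, at least 6.36-fold lower (adjusted p = 2.94e-09). Angptl6, a secreted angiopoietin-like factor, fell by 2.42 (adjusted p = 1.31e-07), and Nefm, a neurofilament subunit, by 1.7 (adjusted p = 0.000988). Of the remaining members of the 15 largest falls, most are on the lists of ER chaperones, of ATF4 targets or of HIF-1 targets.

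**Figure D2:**
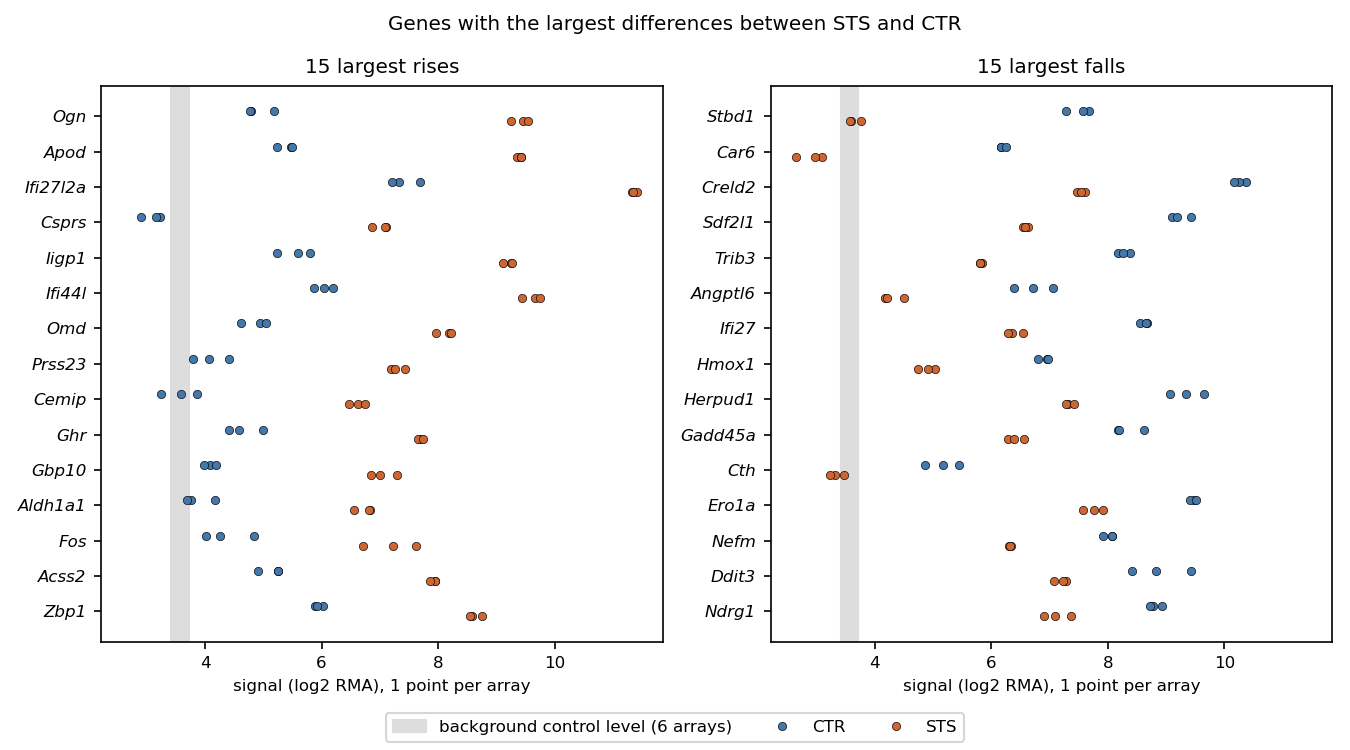
Log2 signal (horizontal axis) on each of the 3 CTR (blue) and 3 STS (orange) arrays for the 15 largest rises and the 15 largest falls among called genes, with the range of the background level in grey. Genes whose groups overlap were not eligible. Csprs and Cemip in CTR and Car6 and Cth in STS lie at background.

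Immediate early genes are transcribed within minutes of a growth factor or stress signal. Of 25 measured, 12 (48%, against 9.75% of all genes) were higher in STS and 2 (8%, against 6.74%) were lower, with a median of 0.46. Fos, a subunit of AP-1, read 4.26, 4.84 and 4.01 on the CTR arrays and 6.71, 7.63 and 7.23 on the STS arrays and rose by 2.82 (SE 0.307, adjusted p = 2.88e-05). Egr1, a zinc finger factor downstream of ERK, read 7.94, 9.07 and 8.86 on the CTR arrays and 10.74, 10.8 and 10.56 on the STS arrays and rose by 2.07 (adjusted p = 3.49e-05). In both cases each STS array lay above each CTR array. Junb and Jun, further AP-1 subunits, rose by 2.02 and 1.06, and the orphan nuclear receptor genes Nr4a1 and Nr4a2 by 2.4 and 1.74 (adjusted p from 2.4e-05 to 0.00128). Egr2 was at background in CTR and at least 1.79-fold higher in STS (adjusted p = 0.000542). The 2 members that fell were Myc, which drives growth and ribosome synthesis and read 8.68, 8.8 and 8.89 on the CTR arrays and 8.05, 8.03 and 7.92 on the STS arrays, and Atf3, a stress factor that also belongs to the ATF4 pathway. Their differences were -0.79 (SE 0.0974, limma adjusted p = 7.85e-05) for Myc and -0.84 (SE 0.0954, limma adjusted p = 3.98e-05) for Atf3.

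Feedback genes of ERK signalling behaved likewise, with 9 of 19 higher (47.4%), 2 lower and a median of 0.30. Dusp1, a phosphatase that switches off MAP kinases, rose from 7.02, 7.64 and 7.4 to 9.27, 9.35 and 8.94, by 1.83 (adjusted p = 2.71e-06). The Sprouty genes Spry4, Spry1 and Spry2, which dampen receptor tyrosine kinase signals, rose by 1.48, 1.22 and 0.84 (adjusted p from 1.76e-05 to 0.00188). A second probe set of Spry2 was not called (-0.02). The cyclin D1 gene Ccnd1 did not pass, at 10.16, 10.43 and 10.34 on the CTR arrays and 10.36, 10.35 and 10.48 on the STS arrays (difference 0.08, adjusted p = 0.562). Dusp4 and Ereg, which encodes the growth factor epiregulin, fell by 0.66 and 0.43 (adjusted p = 7.03e-05 and 0.00806). Of 25 targets of SRF and YAP, which respond to actin tension, 8 rose (32%, against 9.75% of all genes). Another 2 fell (8%, against 6.74%), and the median was 0.01. Ccn1, a matricellular protein, rose by 1.77 (adjusted p = 5.01e-05) and F3, tissue factor, by 1.36 (adjusted p = 0.00327), whereas Ccn2 was at background in both groups. With probe sets averaged for each gene, 4 of the 25 were called higher, and 5 of 18 with specific probe sets only. The count of falls was 1 without CTR 1, CTR 3 or STS 3 and 4 without OXP 1 and OXP 2.

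Genes of sterol synthesis rose nearly throughout. Of 20 measured, 17 (85%) were higher, 0 were lower and the median was 1.13, a little over 2-fold. They span the pathway from its start. Hmgcs1, which makes the HMG-CoA that feeds the pathway, was at background in CTR and at 5.65, 5.42 and 5.5 in STS, at least 3.65-fold higher (adjusted p = 3.56e-05). Idi1, which isomerizes the isoprene unit, read 7.55, 7.88 and 7.69 on the CTR arrays and 9.5, 9.44 and 9.46 on the STS arrays and rose by 1.76 (SE 0.305, adjusted p = 0.00124). Sqle, squalene epoxidase and a rate-limiting step, read 8.82, 8.85 and 8.75 on the CTR arrays and 9.86, 9.84 and 9.89 on the STS arrays and rose by 1.05 (SE 0.172, adjusted p = 0.000796). Neither gene had overlapping arrays. Lss, which closes the sterol rings, rose by 2.21 (adjusted p = 0.000472). Tm7sf2, Nsdhl, Dhcr7 and Cyp51, which process the ring system, rose by 1.64, 1.42, 1.35 and 1.33 (adjusted p up to 0.00463). Of the regulators, Srebf2, the gene of the sterol-regulated factor SREBP-2, rose by 1.03 (adjusted p = 0.00346) and Insig1, which holds it in the ER, by 1.03 (adjusted p = 0.000476). Fdps and Ebp had differences of 0.93 and 0.66 but did not pass (adjusted p = 0.196 and 0.0574).

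In fatty acid synthesis 12 of 22 measured genes rose (54.5%), 1 fell and the median was 0.68. Acss2, which turns acetate into acetyl-CoA, showed the largest rise, with signals of 4.91, 5.26 and 5.25 on the CTR arrays and 7.95, 7.94 and 7.85 on the STS arrays and a difference of 2.78 (SE 0.189, limma adjusted p = 3.47e-07). Acly and Acaca, which supply and carboxylate acetyl-CoA, rose by 0.89 and 1.01, and Fasn, the fatty acid synthase, by 1.34 (adjusted p from 2.98e-05 to 0.00515). Scd1, which puts the first double bond into fatty acids, read 10.47, 10.34 and 10.51 on the CTR arrays and 11.72, 11.56 and 11.61 on the STS arrays and rose by 1.19 (adjusted p = 0.000107). Elovl6, Elovl5 and Fads1, which lengthen and desaturate fatty acids, also rose. The 1 fall was that of Fads3, from 8.67, 8.56 and 8.59 to 7.61, 7.55 and 7.58 (difference -1.03, adjusted p = 1.3e-06). Of 13 genes of cholesterol efflux and LXR targets, 5 rose (38.5%, against 9.75% of all genes) and 0 fell. The median was 0.09, and 6 were at background in both groups. The rises included Mylip, a ubiquitin ligase and LXR target (1.22, adjusted p = 0.00011), and Abcg1, a sterol exporter (0.76, adjusted p = 0.000102). The other Abcg1 probe set was not called (0.38). Nr1h3, which encodes an LXR, had a difference of -0.03 (adjusted p = 0.837). Fatty acid oxidation and PPAR targets stood near the background share, with 0 of 28 higher and 3 lower (10.7%), among them Plin2, which coats lipid droplets (-0.52, adjusted p = 0.00296). Without CTR 1, STS 1 or STS 3, 1 was called, and 6 without OXP 1 and OXP 2. Cpt1a, the entry step of mitochondrial oxidation, did not pass (0.2, adjusted p = 0.0982).

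**Figure D3:**
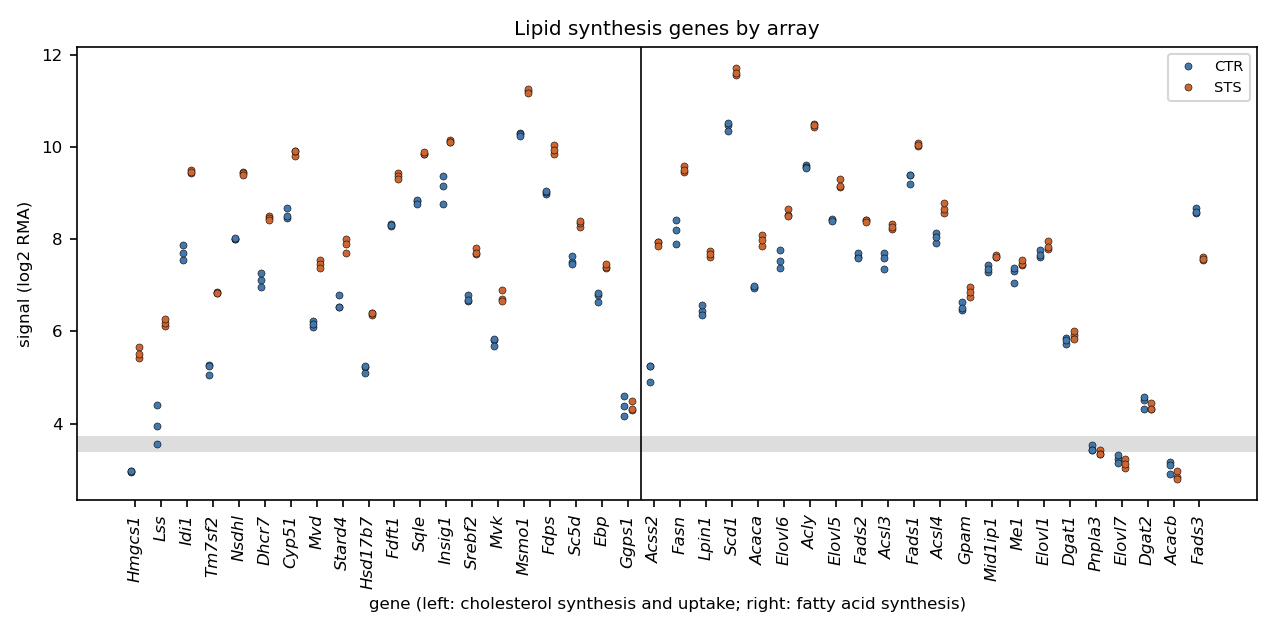
Log2 signal (vertical axis) on each CTR (blue) and STS (orange) array for 20 genes of cholesterol synthesis and uptake (left of the line) and 22 of fatty acid synthesis and desaturation (right), ordered by the difference, with the background level in grey. In 17 of the 20 and 12 of the 22 the rise was called, and Fads3, at the right end, was called lower.

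ER chaperones fell almost as a block. Of 24 measured, 21 (87.5%, against 6.74% of all genes) were lower in STS, 0 were higher and the median was -0.95. Hspa5, which encodes BiP, the main Hsp70 of the ER, read 11.93 to 12.02 on the CTR arrays and 10.76 to 10.89 on the STS arrays, a difference of -1.16 (SE 0.163, limma adjusted p = 0.000238). Creld2, a secreted ER stress protein, read 10.37, 10.25 and 10.16 on the CTR arrays and 7.47, 7.61 and 7.54 on the STS arrays and fell by 2.72, or 6.58-fold (SE 0.179, adjusted p = 2.55e-07). Sdf2l1, a partner of BiP, read 9.43, 9.11 and 9.19 on the CTR arrays and 6.63, 6.54 and 6.58 on the STS arrays and fell by 2.66 (adjusted p = 4.89e-07). The spread within each group was small beside these falls. The genes Herpud1, Sel1l, Syvn1, Edem1 and Derl1, which work in the disposal of misfolded ER proteins, fell by 2.01, 1.35, 0.95, 0.94 and 0.79. Pdia4 and Pdia6, disulfide isomerases, fell by 1.43 and 0.75, and Hsp90b1, the ER form of Hsp90, by 0.69 (adjusted p = 0.00184). Xbp1, the gene of a main transcription factor of the unfolded protein response, fell by 0.54 (adjusted p = 0.000615), but its specific probe set did not pass (-0.17, adjusted p = 0.265). Its other probe sets ranged from -0.61 to -0.17, and 2 of them were called lower. P4hb, Pdia3 and Derl3 were not called, and Pdia3 and Derl3 were at background.

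The classical ER stress response element has a CCAAT box and, after 9 free bases, CCACG. Its exact letters on either strand occurred in the promoters (250 bases before to 50 after the start, RefSeq, GRCm38.p6) of 37 of 27025 genes (0.137%) and of 10 of the 21 listed genes that had a promoter in the table (47.6%). The 3 stretches shown hold it (in capitals, with the strand of the gene read 5′ to 3′) and belong to Hspa5, Creld2 and Hsp90b1, which fell by 1.16, 2.72 and 0.69. They lie at chr2:34772005-34772063 (plus strand), chr15:88819500-88819558 (plus strand) and chr10:86705513-86705676 (minus strand), and the last holds 2 copies.
Hspa5: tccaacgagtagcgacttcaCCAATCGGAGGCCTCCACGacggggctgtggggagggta
Creld2: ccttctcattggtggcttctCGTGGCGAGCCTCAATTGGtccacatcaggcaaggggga
Hsp90b1: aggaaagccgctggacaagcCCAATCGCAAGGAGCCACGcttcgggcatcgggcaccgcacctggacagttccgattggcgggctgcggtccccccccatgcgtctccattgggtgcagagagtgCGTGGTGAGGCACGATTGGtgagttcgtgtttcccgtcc
A match is a description of letters and shows no binding.

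The ATF4 amino acid response fell with them. ATF4 is translated when initiation is slowed by eIF2α phosphorylation, as in amino acid shortage. Of 30 measured members, 23 (76.7%) were lower, 0 were higher and the median was -0.72. Trib3, a pseudokinase gene and one of the strongest targets, read 8.38, 8.17 and 8.26 on the CTR arrays and 5.84, 5.82 and 5.81 on the STS arrays, a difference of -2.45 (SE 0.158, limma adjusted p = 2.14e-07). Ddit3, which encodes CHOP, read 9.43, 8.41 and 8.83 on the CTR arrays and 7.29, 7.23 and 7.07 on the STS arrays and fell by 1.69 (adjusted p = 0.000615), with CTR arrays that ranged over a full unit but stayed above all STS arrays. Cth, which makes cysteine, was at background in STS and at least 3.11-fold lower (adjusted p = 7.56e-07). Chac1, which degrades glutathione, and Ppp1r15a, which reverses eIF2α phosphorylation, fell by 1.48 and 1.68 (adjusted p = 8.98e-05 and 0.000242). Asns, asparagine synthetase, read 10.51, 10.41 and 10.42 on the CTR arrays and 9.73, 9.8 and 9.7 on the STS arrays and fell by 0.7 (adjusted p = 0.00035), and Psph and Psat1 of serine synthesis by 1.11 and 0.44. Atf4 itself fell by 0.43 (adjusted p = 0.0349). Of 17 aminoacyl-tRNA synthetase genes, many of which are ATF4 targets, 11 fell (64.7%) and 0 rose, with a median of -0.41, the largest fall being that of Wars1 (-0.89, adjusted p = 5.74e-06).

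The element bound by ATF4 and C/EBP factors was searched as TGATGNAA on both strands. It occurred in the promoters of 4.51% of genes, of 9 of 26 listed ATF4 targets (34.6%) and of 4 of 11 synthetase genes (36.4%), against 1 of 21 ER chaperone genes (4.76%). The stretches shown, again with the match in capitals, are from Trib3 (chr2:152344019-152344066, minus strand), Asns (chr6:7693205-7693252, minus strand) and Chac1 (chr2:119351029-119351076, plus strand), 3 of the targets that fell.
Trib3: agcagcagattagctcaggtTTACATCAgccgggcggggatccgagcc
Asns: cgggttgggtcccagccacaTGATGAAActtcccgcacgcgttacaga
Chac1: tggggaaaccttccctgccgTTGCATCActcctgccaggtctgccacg

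Ribosome biogenesis, a main target of Myc, had 11 of 34 members lower (32.4%), 0 higher and a median of -0.22. The falls were small. Wdr43 and Nip7, which process ribosomal RNA, fell by 0.63 and 0.6 (adjusted p = 8.62e-05 and 0.000995). The other probe set of Nip7 was not called (-0.15). The count rested partly on single arrays, with 7 called without CTR 1 or without STS 3, and with array quality weights it was 20. Polr1a, Ubtf and Rrn3, of the RNA polymerase I machinery, had differences of 0.01, -0.02 and -0.04 and did not pass (adjusted p from 0.865 to 0.984).

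Of 46 listed interferon-stimulated genes 41 were measured and all 41 were called, 40 higher (97.6%, against 9.75% of all genes) and 1 lower. The median difference was 1.61, about 3-fold. Among the sensors and regulators, Irf7, which amplifies type I interferon, read 7.22, 7.36 and 7.39 on the CTR arrays and 9.73, 9.86 and 9.83 on the STS arrays and rose by 2.48 (SE 0.367, adjusted p = 0.000371). Zbp1, a sensor of Z-form nucleic acid, read 6.02, 5.88 and 5.91 on the CTR arrays and 8.58, 8.76 and 8.54 on the STS arrays and rose by 2.69 (SE 0.145, adjusted p = 4.7e-08). In both the groups were separated by more than 2 units. Ifih1 and Rigi, the RNA sensors MDA5 and RIG-I, rose by 1.61 and 1.09, and Stat2 and Irf9, which carry the type I signal, by 1.7 and 0.72. The effectors rose as well, Mx1 by 2.47, Rsad2 by 2.15, Ifit1 by 1.55, Oas2 by 1.89 and Isg20, the least, by 0.37 (adjusted p = 0.0154).

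The GTPases induced mainly by interferon gamma were among the largest rises. Iigp1 read 5.23, 5.79 and 5.59 on the CTR arrays and 9.11, 9.25 and 9.27 on the STS arrays and rose by 3.67, or 12.8-fold (adjusted p = 2.14e-07). Gbp2 had a mean of 5.64 ± 0.14 (SD, n = 3) in CTR and 8.17 ± 0.0652 in STS, a difference of 2.52 (SE 0.101, limma adjusted p = 5.76e-09). Gbp10 rose by 2.96, Gbp7 by 2.48, Gbp3 by 2.45 and Irgm1 by 1.54. Irf1, itself a gamma-responsive factor, rose by 1.12 (adjusted p = 2.55e-07). Guanylate-binding proteins are close relatives, and which of them a probe set read is less certain than that the family rose. Outside the list, Ifi44l rose by 3.58 (adjusted p = 1.82e-07).

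The 1 member that went down was Ifi27, and its neighbour went up. Ifi27l2a read 7.68, 7.33 and 7.21 on the CTR arrays and 11.33, 11.41 and 11.34 on the STS arrays, a difference of 3.95 (SE 0.358, limma adjusted p = 5.37e-06). Ifi27 read 8.68, 8.55 and 8.65 on the CTR arrays and 6.35, 6.54 and 6.3 on the STS arrays, a difference of -2.23 (SE 0.637, limma adjusted p = 0.0284). Both belong to one small family, and in RefSeq their intervals on chromosome 12 overlap (103433873 to 103443680 for Ifi27l2a, 103434189 to 103440245 for Ifi27). The call on Ifi27 was lost without any 1 of the 6 CTR and STS arrays (adjusted p from 0.0615 to 0.0892), although its groups did not overlap. Its SD was 0.0656 on the CTR and 0.127 on the STS arrays, against the SE of 0.637 that rests on all 12 arrays, and with trend and robust settings the call was lost too (adjusted p = 0.107).

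The interferon-stimulated response element was searched as GAAA followed, after 2 free bases, by GAAA on both strands, matches being allowed to overlap. It occurred in the promoters of 3.99% of genes and of 14 of the 30 interferon-stimulated genes with a promoter in the table (46.7%). It was also in 2 of 9 promoters of the MHC class I list (22.2%), in 2 of 16 of cholesterol synthesis (12.5%) and in 0 of 28 of the extracellular matrix list. The sterol regulatory element, searched as TCAC and CCAC with 1 free base between them, was found in the promoters of 1.44% of genes, in 1 of 16 of cholesterol synthesis, that of Hmgcs1, and in 0 of 18 of fatty acid synthesis. The stretches shown are from Ifit1 (chr19:34640765-34640833, plus strand), Rsad2 (chr12:26456543-26456592, minus strand) and Gbp3 (chr3:142559979-142560034, plus strand), with matches in capitals. In Gbp3 2 matches overlap.
Ifit1: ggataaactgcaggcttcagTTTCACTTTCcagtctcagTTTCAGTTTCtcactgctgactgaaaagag
Rsad2: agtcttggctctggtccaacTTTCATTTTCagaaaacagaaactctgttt
Gbp3: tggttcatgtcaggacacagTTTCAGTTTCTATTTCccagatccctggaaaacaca
These 3 genes rose by 1.55, 2.15 and 2.45.

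Antigen presentation by MHC class I, another interferon-responsive system, had 10 of 11 members higher (90.9%), 0 lower and the highest median of the lists, 1.75. H2-K1, a classical heavy chain, read 10.35, 10.17 and 10.23 on the CTR arrays and 11.59, 11.68 and 11.69 on the STS arrays, a difference of 1.4 (SE 0.118, limma adjusted p = 2.77e-06). Psmb8, a subunit of the immunoproteasome that cuts peptides for loading, read 6.86, 6.82 and 6.86 on the CTR arrays and 8.9, 9.14 and 9.13 on the STS arrays, a difference of 2.21 (SE 0.125, limma adjusted p = 7.06e-08). The other Psmb8 probe set was not called (0.28). Psmb9 and Psmb10, the other catalytic subunits, rose by 1.97 and 1.75, and Psme1 and Psme2 of its activator by 1.28 and 0.89. Tapbp, tapasin, which loads peptides, rose by 2.21 (adjusted p = 2.14e-07). Nlrc5, the transactivator of these genes, rose from 4.52, 4.53 and 3.93 to 6.4, 6.37 and 6.51, by 2.1 (adjusted p = 3.99e-07). Class I heavy chain genes are near-identical, so that H2-K1 and H2-D1 (1.75) may share signal.

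NF-kB targets, cytokines and chemokines did not move in the same way. Of 30 measured, 4 were higher (13.3%) and 1 lower, close to the share over all genes, and 13 were at background. Nfkbia, which encodes the inhibitor IκBα, rose by 1.26 (adjusted p = 3.47e-07), Cxcl10, a chemokine that interferons also induce, by 0.51 (adjusted p = 0.03, lost without CTR 1, CTR 2 or any 1 STS array, at 0.054 to 0.113) and Cd274, PD-L1, by 0.43 (adjusted p = 0.00819). Ptgs2, cyclooxygenase 2, fell from 10.81, 10.67 and 10.74 to 10.14, 10.06 and 9.69, by 0.77 (adjusted p = 0.000588). Ccl2, a chemokine for monocytes, did not pass (difference 0.48, adjusted p = 0.116), and Il6 was at background. Without CTR 1, CTR 2 or any 1 STS array 2 of the 30 were called higher, and 7 without OXP 1 and OXP 2.

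**Figure D4:**
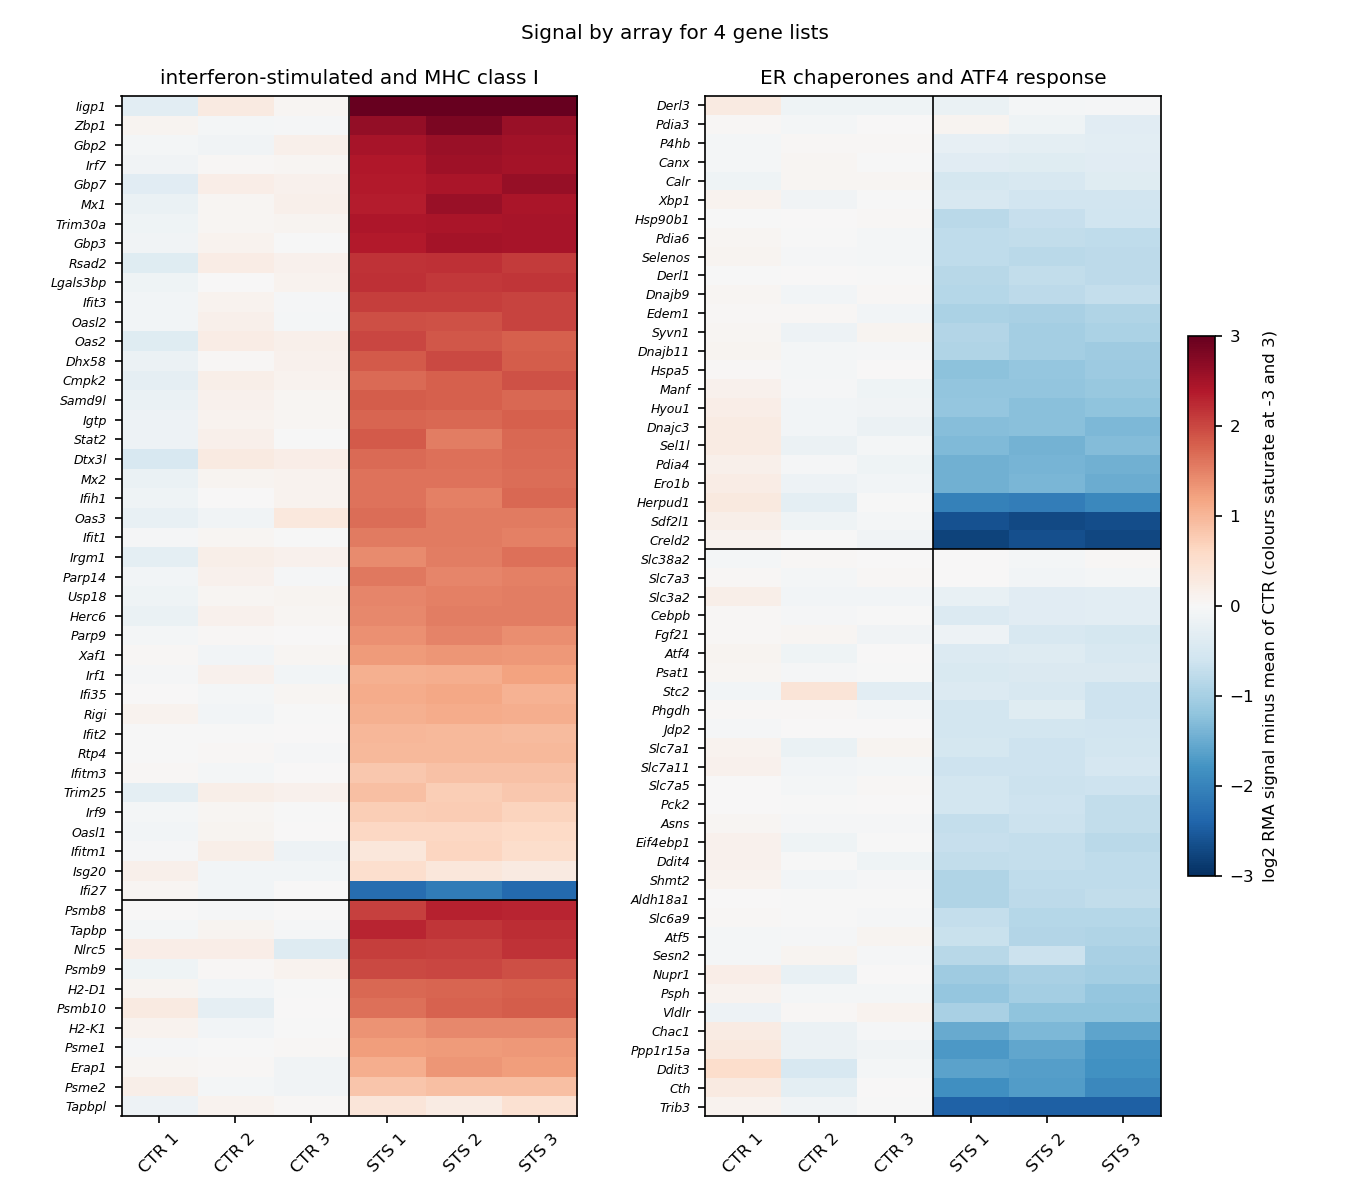
Log2 signal of each gene minus its mean over the CTR arrays, in colour (red above, blue below, saturating at 3), for 3 CTR and 3 STS arrays. The left panel holds 41 interferon-stimulated genes above 11 of MHC class I presentation, with Ifi27 the 1 blue row, and the right panel 24 ER chaperones above 30 ATF4 response genes, none of them called higher.

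HIF-1 targets other than glycolytic enzymes had 12 of 24 members lower (50%), 1 higher and a median of -0.51. Ero1a, an oxidase that drives disulfide formation in the ER and is also induced by ER stress, read 9.48, 9.42 and 9.52 on the CTR arrays and 7.92, 7.76 and 7.58 on the STS arrays, a difference of -1.72 (SE 0.116, limma adjusted p = 3.28e-07). Ndrg1, a widely used hypoxia gene, read 8.78, 8.72 and 8.94 on the CTR arrays and 7.37, 7.1 and 6.9 on the STS arrays and fell by 1.69 (adjusted p = 7.38e-05). All 3 STS arrays lay below the CTR arrays in both. P4ha2 and Plod1, which hydroxylate collagen, fell by 1.67 and 1.02, Bnip3 and Bnip3l, receptors for the removal of mitochondria, by 1.39 and 0.67, and Egln3, an oxygen sensor, by 1.11 (adjusted p = 0.000155). Vegfa, the best known target, read 7.49, 7.53 and 7.57 on the CTR arrays and 7.57, 7.65 and 7.58 on the STS arrays and did not pass (0.07, adjusted p = 0.652), while its other probe set was called lower (-0.52), so that no direction is given. Car9, a carbonic anhydrase, was at background in STS and did not pass either (adjusted p = 0.115). The 1 rise was Bhlhe40, a repressor that the circadian clock and serum also control (0.65, adjusted p = 0.00021).

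Antioxidant genes and NRF2 targets moved both ways, with 6 of 32 higher (18.8%) and 8 lower (25%). Hmox1, heme oxygenase, read 6.96, 6.98 and 6.8 on the CTR arrays and 4.75, 5.03 and 4.91 on the STS arrays, a difference of -2.02 (SE 0.222, limma adjusted p = 3.12e-05). Gpx1, a selenium-dependent glutathione peroxidase, read 9.53, 9.48 and 9.47 on the CTR arrays and 8.26, 8.28 and 8.26 on the STS arrays, a difference of -1.22 (SE 0.24, limma adjusted p = 0.00302). In each the 3 STS arrays lay more than 1 unit below the CTR arrays. Srxn1, Txnrd1 and Gclm, all NRF2 targets, fell by 0.69, 0.48 and 0.48 (adjusted p from 0.000764 to 0.00634), and Nqo1 by 0.89 (adjusted p = 0.0263, lost without any 1 of the 6 arrays, at 0.0511 to 0.0818). Of the glutathione transferases, Gsta4 rose by 0.97 (adjusted p = 8.62e-05) and Gstm1 by 0.7, and Mgst1 was at background in CTR and at least 1.08-fold higher in STS. The metallothionein gene Mt1 did not pass (-0.02, adjusted p = 0.908). Without CTR 1 or without STS 3 the counts were 3 higher and 5 lower, and 3 were also called higher without CTR 3 or STS 1.

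Genes under FoxO control and of the insulin and IGF pathway were higher in 14 of 29 cases (48.3%) and lower in 1, with a median of 0.33. Txnip, which restrains glucose uptake, read 3.96, 4.74 and 4.58 on the CTR arrays and 6.33, 6.36 and 6.47 on the STS arrays, a difference of 1.96 (SE 0.182, limma adjusted p = 6.76e-06). Its other probe set was not called (0.17). Irs1, the adaptor of the insulin receptor, read 5.11, 5.86 and 5.51 on the CTR arrays and 7.01, 6.77 and 6.96 on the STS arrays, a difference of 1.42 (SE 0.222, limma adjusted p = 0.000568). Sesn3 and Ccng2, FoxO targets that slow growth, rose by 1.6 and 1.16, and the receptor gene Igf1r and Foxo3 itself by 0.53 and 0.65 (adjusted p = 0.0136 and 0.000465). Insr, the insulin receptor, did not pass (0.33, adjusted p = 0.0547). The 1 fall was that of Igfbp6, an IGF-binding protein (-1.02, adjusted p = 1.4e-05).

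Few cell cycle genes were called. Of 42 genes of DNA replication and S phase, 5 were higher (11.9%), 0 lower and the median was 0.14. Of 37 genes of mitosis, 2 were lower (5.41%), 0 higher and the median was -0.04. Both shares are near those over all genes. Mki67, the proliferation antigen, read 8.15, 8.27 and 8.29 on the CTR arrays and 8.55, 8.33 and 8.45 on the STS arrays (0.21, adjusted p = 0.255) and the replicative helicase gene Mcm2 read 8.26, 8.25 and 8.28 on the CTR arrays and 8.33, 8.22 and 8.23 on the STS arrays (-0.00475, adjusted p = 0.986). Rfc3, a clamp loader subunit, was the largest rise at 0.91 (adjusted p = 0.00449). These counts turned on single arrays. Without OXP 1 and OXP 2, 11 replication genes were called higher and 9 mitosis genes lower, and without OXP 1 alone 8 and 7. Without OXP 2 or OXP 3, 6 and 4 mitosis genes were called lower. Without CTR 1, CTR 3, STS 1 or STS 3, 3 replication genes were called higher, and without any 1 CTR, STS or STS+OXP array 0 or 1 mitosis genes were called lower. Growth arrest genes had 10 of 27 members higher (37%) and 0 lower, and 6 of 24 with specific probe sets only. Gas1, a key member of that list, was not called (-0.07). Cdkn1b, the inhibitor p27, read 7.19, 7.3 and 7.35 on the CTR arrays and 7.96, 7.83 and 8.01 on the STS arrays and rose by 0.65 (adjusted p = 0.00328), Cdkn2c, the inhibitor p18, rose by 0.74 (adjusted p = 3.31e-05) and Rbl2, p130, by 0.77 (adjusted p = 0.00403). The other probe sets of Cdkn1b and Rbl2 were not called (0.04 and 0.18). Pdgfrb, a growth factor receptor, rose by 1.17 (adjusted p = 0.000409).

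The p53 targets had 8 of 24 members lower (33.3%) and 3 higher. The classical targets Cdkn1a, which read 7.85, 7.92 and 7.78 on the CTR arrays and 7.81, 7.83 and 7.81 on the STS arrays, and Mdm2 did not pass (differences -0.04 and 0.1, adjusted p = 0.791 and 0.588). Gadd45a, which ER stress and ATF4 also induce, was the largest fall, by 1.91, with signals of 8.63, 8.17 and 8.19 on the CTR arrays and 6.3, 6.56 and 6.39 on the STS arrays (adjusted p = 0.000634). Trp53inp1, a cofactor of p53 and of autophagy, rose by 1.12 (adjusted p = 4.65e-07), but its other probe set was not called (-0.13). In the BCL2 family, Bcl2l11, which encodes the pro-death protein BIM and is also a FoxO target, read 6.1, 6.18 and 6.33 on the CTR arrays and 7.4, 7.19 and 7.29 on the STS arrays, a difference of 1.09 (SE 0.233, limma adjusted p = 0.0055). Bcl2l1, which encodes the survival protein BCL-XL, fell by 0.33 (adjusted p = 0.0237) and Bbc3, the pro-death protein PUMA, by 0.62 (adjusted p = 0.0264). The other probe sets of Bcl2l1 were not called (-0.22 to 0.04). The calls on Bcl2l1 and Bbc3 were lost without single arrays (adjusted p up to 0.0937 for Bbc3). Without CTR 1 or without any 1 STS array 1 of 15 members was called lower, and 2 without CTR 2 or CTR 3, against 4 with all arrays.

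Lysosomal genes were higher in 17 of 33 cases (51.5%) and lower in 1 (0 without CTR 1, CTR 3 or STS 3, and 4 without OXP 1 and OXP 2), with a median of 0.31. All rises but that of Grn were under 2-fold. Grn, progranulin, read 9.23, 9.29 and 9.3 on the CTR arrays and 10.54, 10.41 and 10.6 on the STS arrays and rose by 1.25 (SE 0.089, adjusted p = 5.31e-07). Lamp1, a main protein of the lysosomal membrane, read 10.26, 10.35 and 10.28 on the CTR arrays and 10.84, 10.8 and 10.86 on the STS arrays, a difference of 0.54 (SE 0.0603, limma adjusted p = 3.64e-05). Enzymes rose too, Tpp1, a peptidase, by 0.6, Hexa, a hexosaminidase, by 0.57 and Ctsd, cathepsin D, by 0.46 (adjusted p from 8.95e-05 to 0.00128). Of their regulators, Tfeb did not pass (0.08, adjusted p = 0.624) and Tfe3 fell by 0.32 (adjusted p = 0.0214). The letters TCACGTGA, the core of the element that TFEB-family factors bind, occurred in the promoters of 6 of 30 lysosomal genes (20%) against 1.12% of all genes. Among specific probe sets, 10 of 24 lysosomal genes were called higher. Autophagy genes had 4 of 25 members higher (16%) and 1 lower, nearer to the background share, and only 2 higher without CTR 1, STS 1 or STS 3. Ulk1, the kinase that starts autophagy, rose by 0.57 (adjusted p = 0.0144, 0.0503 to 0.0582 without CTR 1, CTR 3, STS 1 or STS 3), and its other probe set was not called (-0.07).

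In the extracellular matrix list 18 of 40 genes were higher (45%), 0 lower and the median was 0.27, with 14 members at background in both groups. Beside Ogn and Aspn, Mgp, matrix Gla protein, read 8.86, 8.76 and 8.86 on the CTR arrays and 10.86, 10.86 and 10.75 on the STS arrays, a difference of 2.0 (SE 0.126, limma adjusted p = 1.84e-07). Fn1, fibronectin, read 9.58, 9.51 and 9.59 on the CTR arrays and 10.76, 10.64 and 10.75 on the STS arrays, a difference of 1.16 (SE 0.109, limma adjusted p = 8.02e-06). Basement membrane genes rose, Col4a1 by 1.1, Nid1 by 1.08 and Lamc1 by 0.38, and so did fibrillar and beaded collagens, Col3a1 by 1.16 and Col6a1 by 1.43 (adjusted p up to 0.0221, for Lamc1). Col1a1 rose by only 0.34 (adjusted p = 0.0233, 0.0577 to 0.112 without CTR 1, CTR 3 or STS 1), and Dcn, decorin, was at background. Among proteases and inhibitors 7 of 20 were higher (35%, against 9.75% of all genes) and 0 lower, and 7 were at background in both groups. Timp3, an inhibitor, rose by 1.37 (adjusted p = 0.000124) and Mmp2, a gelatinase, by 1.1 (adjusted p = 5.09e-05), but Timp1 did not pass (-0.17, adjusted p = 0.381). With the average of all probe sets, 3 of the 20 were called.

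Of 19 TGF-beta and BMP genes 9 were higher (47.4%) and 0 lower. Ligand genes had the largest rises, Tgfb3 by 1.39 (adjusted p = 4.22e-05), the activin subunit gene Inhba by 1.27 (adjusted p = 0.00285), Bmp2 by 0.94 and Bmp4 by 0.89. A second probe set of Inhba was not called (-0.14). The direct targets Id1 and Smad7 did not pass. Id1 read 6.25, 6.59 and 6.75 on the CTR arrays and 6.5, 6.43 and 6.54 on the STS arrays (-0.04, adjusted p = 0.959) and Smad7, a feedback inhibitor, had a difference of -0.11 (adjusted p = 0.479). Of 16 clock genes, 5 were higher (31.2%) and 1 lower. Per3, a period gene, rose by 0.88 (adjusted p = 6.6e-05) and Ciart, a repressor, fell by 0.71 (adjusted p = 0.00146). The other probe sets of Per3 were not called (0.02 to 0.21). Per2 and Dbp, both under clock control, rose by 0.62 and 0.43 (adjusted p = 0.0241 and 0.0177), calls lost without CTR 1, STS 1 or STS 3 (for Per2 also CTR 2), and without CTR 1, STS 1 or STS 3 only 3 of the 16 were called higher. A second probe set of Per2 had a difference of -0.25 and was not called. Cytosolic heat shock genes had 3 of 14 higher (21.4%) and 0 lower. Cryab, a small heat shock protein, was at background in CTR and at least 3.54-fold higher in STS (adjusted p = 8.25e-09). Of its other 2 probe sets, 1 was called lower (-0.55) and 1 higher (1.5).

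Markers of other cell types were checked because a culture should hold 1 line. Of 8 macrophage markers 0 were called and 6 were at background, and of 6 endothelial markers 0 were called and 5 were at background. Of 8 lymphocyte markers 2 were lower, Cd79a and Cd3d, the first at background in STS and at least 1.35-fold lower (adjusted p = 0.00335), the other by 0.37 (adjusted p = 0.0212), with 1 of the 2 called without CTR 1, STS 1 or STS 3. Ptprc, the marker of all leukocytes, was at background in both groups. The cells are called colon carcinoma cells in the labels, but 6 of 10 epithelial and colon markers were at background, Cdh1, Krt19, Krt18, Vil1 and Cdx1 among them. The 2 epithelial markers called lower, Krt18 and Lgals4, were at background in both groups. The others on that list, Epcam, Krt8, Krt20 and Cdx2, had a mean above background in at least 1 group and were not called. The mesenchymal marker Vim, vimentin, read 12.18, 12.31 and 12.29 on the CTR arrays and 12.26, 12.22 and 12.24 on the STS arrays (-0.02, adjusted p = 0.882). Of 6 mesenchymal markers 2 were higher, Pdgfrb and Col1a1, which are also on other lists (1 without CTR 1, CTR 3 or STS 1). Of the 6, 2 were at background in both groups. The part of these markers in the matrix result was not tested.

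The same change of medium was also made in the presence of oxaliplatin, on the 6 other arrays, which enter STS minus CTR only through the estimated spread. There 2 genes were called between STS+OXP and OXP, but 1166 without OXP 2, so that values are given with and without that array. Of the 2819 genes called without drug, 58.4% had a difference of the same sign with drug (60.7% without OXP 2), against 48.2% (52.5%) of the genes not called. The test of the difference between these settings, the interaction in limma, was called for 1417 of all 17097 genes (8.29%). Of the 1667 genes higher in STS it was called for 889 (53.3%) and of the 1152 lower for 385 (33.4%). These genes were chosen by a difference that the interaction contains, so that their shares are not independent of that choice.

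Cholesterol genes had positive differences with drug as well. There all 20 cholesterol genes had a difference above 0, with a median of 0.61 (0.95 without OXP 2, where 19 were called higher), against 1.13 without drug. Over all 17097 genes, 8503 were above 0 and 8594 below with drug. Without OXP 2, 407 of all genes were called higher and 759 lower. In fatty acid synthesis 19 of 22 were above 0, with a median of 0.27 (0.41). HIF-1 targets had 17 of 24 below 0 and a median of -0.28 (-0.37), against -0.51 without drug. The interferon-stimulated genes did not follow. With drug 21 were above 0 and 20 below, with a median of 0.01 (-0.01). ER chaperones, at a median of -0.95 without drug, had a median of 0.24 (0.41) with it, and ATF4 targets, at -0.72, had 0.24 (0.35). In OXP itself, against the CTR arrays that STS is also compared with, the medians were 1.63 for interferon-stimulated genes, -0.94 for ER chaperones and -1.40 for ATF4 targets, and 0.48 for cholesterol synthesis. Creld2 differed by -2.72 without drug and by 0.37 with it (0.64 without OXP 2), Irf7 by 2.48 and 0.98 (1.49), Sqle by 1.05 and 0.5 (0.78) and Ifi27 by -2.23 and -2.21 (-3.35).

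**Figure D5:**
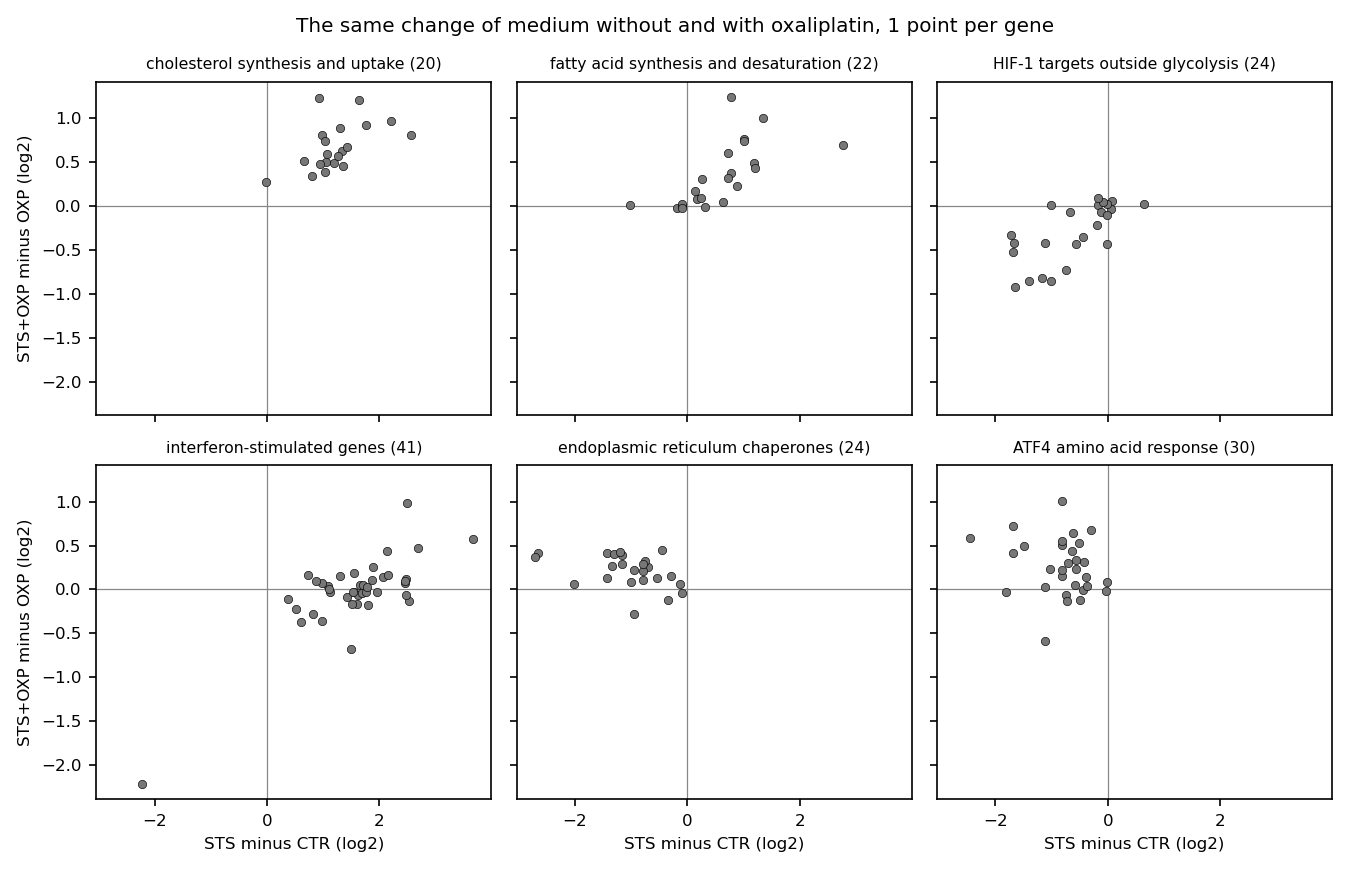
Difference of each gene between the media without drug (STS minus CTR, log2, horizontal axis) and with drug (STS+OXP minus OXP, log2, vertical axis, all arrays) for 6 gene lists. All 20 cholesterol genes lie above 0 on the vertical axis, the interferon-stimulated genes lie on both sides of it at a median of 0.01, and 21 of 24 ER chaperones lie above it while below 0 on the horizontal axis. Over all 17097 genes, 8503 had a difference above 0 with drug.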

How the data were processed

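RNA of CT26 cells was labelled with a 3′ IVT Express kit and read on Affymetrix mouse arrays, 3 arrays in each of 4 groups. The authors deposited log2 values after RMA, which corrects background, normalizes between arrays and summarizes probes, and the submitters' processing notes name RMA and R 3.02. These values were used as deposited. Array data give no read depth, so that the number of arrays limits the precision. The labels' groups were used, and 0 columns of per-sample values were left out.

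Of 45141 probe sets, 28898 had 1 gene symbol, 551 several and 15588 none, and 104 were controls. For each of 17097 genes the probe set that was brightest on average was kept. Limma 3.58.1 in R 4.3.3 fitted the 4 group means over all 12 arrays (lmFit, eBayes), p-values were adjusted by the Benjamini-Hochberg method over all genes, and genes were called at 0.05. All tests were two-sided. The limma fit was tested on simulated data. A group mean at or under the highest of 22 nonspecific control probe sets counted as background. The nonspecific set for GC content 25 read far above the others and was left out after its values were seen. A bound on a fold was taken against that level.

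The text names the 15 largest rises and falls among called genes whose arrays do not overlap and whose higher mean is above background, without unnamed clones. From each list, up to 4 called members with the largest differences and the key members were selected for naming. Some of these list members, called and not called, are not printed in the text. The comparison, its lists and key members were chosen with earlier results of these data known. Of 810 listed genes, 80 were not analysed here. Promoters and coordinates were RefSeq's (GRCm38.p6). The alternatives were another centring or loess, the choice of probe set, a filter on signal, trend and robust settings, array weights, the 6 arrays alone, a replicate block, leaving out arrays, a fold threshold and the methods' unpaired comparison with Welch's correction.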

Additional observations from a re-analysis of the deposited data

Results flagged for a closer look

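For genes among the 30 largest changes between STS and CTR, the change was set against the same change of medium in the presence of oxaliplatin by the interaction term of the limma fit, adjusted over 17097 genes, of which 8.29% were called. The genes were chosen by the size of STS minus CTR, which the interaction contains, so that the values are a description and their calls are not independent of that choice. They are the 24 genes whose interaction was called and whose mean was above background in all 4 groups. Each gene is given with its log2 difference without drug and with drug, followed by their difference (with drug minus without) and its adjusted p, with all arrays and without the OXP 2 array. In OXP minus CTR, with all arrays, the 24 genes differed in the same direction as in STS minus CTR. These differences ran from 1.9 (Acss2) to 3.81 (Ogn) for rises and from -0.96 (Hmox1) to -3.52 (Stbd1) for falls. The difference with drug therefore starts from OXP levels that already differed from CTR. In the interferon-linked group and beside it were Ifi27l2a (3.95 and 1.11, interaction -2.84, adjusted p = 0.00333, -2.23 and 4.2e-06 without OXP 2) and Iigp1 (3.67 and 0.57, interaction -3.1, adjusted p = 6.3e-05, -2.81 and 1.38e-05 without OXP 2). The same held for Ifi44l (3.58 and 0.6, interaction -2.98, adjusted p = 5.94e-05, -2.62 and 6.77e-07 without OXP 2), Gbp10 (2.96 and 0.13, interaction -2.82, adjusted p = 6.02e-07, -2.74 and 6.77e-07 without OXP 2) and Zbp1 (2.69 and 0.47, interaction -2.22, adjusted p = 1.63e-05, -2.0 and 4.62e-07 without OXP 2). Genes of the matrix and its turnover were Ogn (4.49 and 1.58, interaction -2.91, adjusted p = 0.0166, -2.08 and 5e-06 without OXP 2) and Omd (3.24 and 1.02, interaction -2.22, adjusted p = 0.016, -1.62 and 0.000128 without OXP 2). Secreted proteins and a receptor were Prss23 (3.2 and 0.89, interaction -2.31, adjusted p = 0.0255, -1.62 and 0.000412 without OXP 2), Apod (4.0 and 1.5, interaction -2.5, adjusted p = 0.0146, -1.8 and 4.38e-06 without OXP 2) and Ghr (3.025 and 0.8, interaction -2.22, adjusted p = 0.0012, -1.83 and 1.61e-05 without OXP 2). The remaining rises were those of Aldh1a1 (2.86 and -0.06, interaction -2.92, adjusted p = 6.97e-07, -2.88 and 1.06e-06 without OXP 2), Fos (2.82 and -0.65, interaction -3.47, adjusted p = 0.000212, -3.69 and 0.000101 without OXP 2) and Acss2 (2.78 and 0.69, interaction -2.09, adjusted p = 0.000255, -1.79 and 3.57e-06 without OXP 2).

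Among the falls, ER genes were Creld2 (-2.72 and 0.37, interaction 3.08, adjusted p = 5.52e-06, 3.36 and 3.82e-08 without OXP 2), Sdf2l1 (-2.66 and 0.42, interaction 3.08, adjusted p = 9.24e-06, 3.35 and 1.38e-07 without OXP 2) and Herpud1 (-2.01 and 0.06, interaction 2.08, adjusted p = 9.85e-05, 2.22 and 3.42e-05 without OXP 2). Genes of the ATF4 response were Trib3 (-2.45 and 0.59, interaction 3.04, adjusted p = 2.15e-06, 3.28 and 3.82e-08 without OXP 2) and Ddit3 (-1.69 and 0.73, interaction 2.42, adjusted p = 0.00128, 2.77 and 2.79e-05 without OXP 2). Targets of HIF-1 were Ero1a (-1.72 and -0.34, interaction 1.38, adjusted p = 0.000145, 1.23 and 3.27e-05 without OXP 2) and Ndrg1 (-1.69 and -0.53, interaction 1.16, adjusted p = 0.0261, 0.84 and 0.00616 without OXP 2). Beyond these lists were Stbd1 (-3.86 and -0.09, interaction 3.78, adjusted p = 3.26e-07, 3.87 and 1.56e-07 without OXP 2) and Angptl6 (-2.42 and 0.21, interaction 2.63, adjusted p = 4.2e-06, 2.71 and 3.88e-06 without OXP 2). Stbd1 was close to background in STS, OXP and STS+OXP. The last were Hmox1 (-2.02 and -0.7, interaction 1.31, adjusted p = 0.0196, 0.95 and 0.000455 without OXP 2) and Gadd45a (-1.91 and 0.67, interaction 2.58, adjusted p = 0.00205, 3.06 and 2.13e-06 without OXP 2). Of the other 6 of the 30, Ifi27 and Nefm had no call, and Csprs, Cemip, Car6 and Cth are left out because at least 1 group was at background. OXP 2 lay near the STS+OXP arrays, and the 24 interactions were called without OXP 2 as well.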

How the results depend on the processing

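Of 2819 calls, 2698 were shared with median centring and 2631 with cyclic loess, and the median over all genes was -0.03, -0.02 and -0.003 with the main values, median centring and loess. The total was 4400 with array quality weights (2075 lower), 385 with a fold of at least 2, and, by the methods' unpaired comparison with Welch's correction, 4090 unadjusted and 715 after Benjamini-Hochberg adjustment. With the 6 arrays of STS and CTR alone the total was 3782, 2125 of them higher and 1657 lower. Leaving out 1 array gave 1937 to 3527 calls, 1176 to 2006 of them higher and 716 to 1521 lower, the lowest counts of falls being 764 without CTR 1 and 716 without STS 3. Without OXP 1 and OXP 2 (chosen after seeing the data) 1747 were lower. With drug, 0 to 1166 genes were called when 1 array was left out (2 with all arrays, 1166 without OXP 2). Of 161 genes selected for naming, not all of which are printed, 141 were called, 111 of them under every alternative that measured them. More than 1 probe set was available for 79 of the selected genes, and for 2 another probe set was called the opposite way. Vegfa turned from 0.07 to -0.22 (adjusted p = 0.0419) with the average of its probe sets. The replicate block, entered because groups share array numbers, gave 2640 calls, 1570 higher and 1070 lower, and cost the call of 1 selected gene. Arrays of the same number deviated together with correlations of 0.07, -0.02 and 0.10, and not every array correlated best with its own number, so the numbers were not taken to pair the arrays. The causes of these shifts were not tested. With the filter on signal, no macrophage or endothelial marker was left to test. Signals near background limit what can be said of 7198 genes.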

Other observations

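Serum is also a source of selenium, and selenoproteins, which carry it as selenocysteine, were listed after the values had been seen. Of 23 measured, 2 were higher and 7 lower in STS (over all genes 9.75% were higher and 6.74% lower), with a median of -0.11, against -0.03 over all genes. Selenop, the selenium transport protein, was at background in CTR and read 5.63, 5.64 and 5.67 in STS. Dio2, a deiodinase that activates thyroid hormone, rose by 1.16 (limma adjusted p = 0.000237). The falls were those of Gpx1, whose signals were 9.53, 9.48 and 9.47 on the CTR arrays and 8.26, 8.28 and 8.26 on the STS arrays, of Selenoh (-1.41, adjusted p = 0.00511) and, more weakly, of Selenos, Txnrd1, Selenom, Selenok and Selenof, by 0.79 to 0.27. Selenos and Selenok act in the disposal of misfolded ER proteins, and Gpx1 and Txnrd1 are also on the antioxidant list.

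Complement genes were likewise listed after their values had been seen. Of 19 measured, 5 were higher and 0 lower, against the same shares of 9.75% and 6.74% over all genes, and 13 were at background in both groups. C1s1, a protease that starts the classical pathway, read 3.4, 4.15 and 3.6 on the CTR arrays and 5.31, 5.34 and 5.6 on the STS arrays and rose by 1.7 (limma adjusted p = 0.00046). Its partners C1ra and C1rb were at background in CTR and read 5.36, 5.45 and 5.8 and 5.0, 5.09 and 5.16 in STS. Masp1, a protease of the lectin pathway, rose by 1.42 (adjusted p = 8.4e-08) and Clu, clusterin, by 0.79 (adjusted p = 0.000356).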
